A study of Mus musculus with 12 samples.

Results

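The circadian clock of the liver was read out here through 10 genes: Arntl, Clock, Npas2, Per1, Per2, Per3, Cry1, Cry2, Nr1d1 and Dbp. They were taken by gene symbol from the array annotation, where Arntl is the gene of the BMAL1 protein, and each was represented by its brightest probe. All 10 were present among the 31870 gene names and identifiers on the array. A gene was tested when its probe stood well above background in 3 or more of the 12 livers, which left 19531 genes with 9 of the 10 clock genes among them. Npas2 did not stand above background in any liver and was not tested.

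The study compared mouse livers with and without FSAP (factor VII-activating protease), an enzyme of the blood plasma that is the product of Habp2, each after bile duct ligation or a sham operation. Ligation of the common bile duct (BDL) blocks the outflow of bile and is a standard model of cholestatic liver injury. The 4 groups were WT sham, WT BDL, FSAP-/- sham and FSAP-/- BDL, where WT mice were FSAP+/+ littermates of the FSAP-/- mice, with 3 mice and 1 array for each mouse. All mice were 20 to 30 weeks old and came from a line backcrossed to BalbC only as far as generation F3, so that unlinked segments of the original strain can still segregate among littermates. The labels name no cell type or promoter to which the loss of FSAP would be limited. Livers were taken 2 weeks after surgery, and sham mice had the same operation without the ligation. The labels give no time of day for tissue collection, no lighting schedule and no feeding time, and each mouse gives 1 time point, so a change in the level of a clock gene and a shift of its daily phase cannot be told apart in these data.

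The mammalian clock is a transcriptional feedback loop that runs in nearly every cell. BMAL1 pairs with CLOCK, or with its relative NPAS2, and the pair activates genes through E-box elements. Among these targets are the Per and Cry genes, whose proteins return to the nucleus and repress the pair that made them. A second loop runs through REV-ERB alpha (the product of Nr1d1), which represses Arntl by competing with the activating ROR receptors at shared elements. DBP is a transcription factor made in the opposite phase to BMAL1, and it acts through D-box elements. In the liver these loops drive daily rhythms of bile acid, lipid, glycogen and drug metabolism, and feeding time is a strong signal to them.

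The elements through which these loops are wired can be read in the promoters of some of the genes. Promoter sequence came from RefSeq on GRCm38.p6, as windows of 300 bases from 250 bases before to 50 bases after each annotated start, and windows were found for 9 of the 10 genes, all but Per2. The letters CACGTG (the E-box), CACGTT (a variant of it), TTATGTAA or TTACGTAA (the D-box) and TAGGTCA or TGGGTCA (the half-site bound by ROR and REV-ERB) were searched on both strands. Of all 32851 windows, 7.15% held the E-box, 4.68% the variant, 1.06% the D-box and 6.45% the half-site, and no match of one motif overlapped a match of another in the sequences shown. A match is only a match of letters, and none was found in the windows of Dbp, Clock or Npas2. The following stretches are shown because each holds one of these elements in a clock gene or in Ciart, a further clock gene described below, and the matched letters are in capitals. The first 4 are the 250 bases before the start, written 5′ to 3′ in the direction of the gene, and the Arntl stretch is 30 bases just after its start.
Per3, chr4:151044666-151044915, minus strand, 2 D-box matches: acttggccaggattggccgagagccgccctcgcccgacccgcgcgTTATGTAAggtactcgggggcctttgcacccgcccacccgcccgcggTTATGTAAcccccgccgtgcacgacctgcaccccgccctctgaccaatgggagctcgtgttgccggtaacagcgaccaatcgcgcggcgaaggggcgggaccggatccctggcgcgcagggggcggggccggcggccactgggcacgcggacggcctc
Cry1, chr10:85185055-85185304, minus strand, the E-box variant on the opposite strand and then the E-box: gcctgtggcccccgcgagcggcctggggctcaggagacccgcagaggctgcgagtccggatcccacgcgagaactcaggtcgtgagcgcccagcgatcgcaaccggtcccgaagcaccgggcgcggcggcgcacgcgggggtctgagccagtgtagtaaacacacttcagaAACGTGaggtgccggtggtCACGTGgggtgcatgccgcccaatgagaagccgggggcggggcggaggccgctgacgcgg
Per1, chr11:69098699-69098948, plus strand, the E-box: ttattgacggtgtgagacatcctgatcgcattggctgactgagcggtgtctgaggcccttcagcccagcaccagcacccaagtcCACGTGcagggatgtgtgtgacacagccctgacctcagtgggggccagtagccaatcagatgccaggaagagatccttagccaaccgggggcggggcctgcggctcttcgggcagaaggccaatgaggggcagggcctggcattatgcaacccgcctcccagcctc
Ciart, chr3:95882229-95882478, minus strand, 3 E-box matches: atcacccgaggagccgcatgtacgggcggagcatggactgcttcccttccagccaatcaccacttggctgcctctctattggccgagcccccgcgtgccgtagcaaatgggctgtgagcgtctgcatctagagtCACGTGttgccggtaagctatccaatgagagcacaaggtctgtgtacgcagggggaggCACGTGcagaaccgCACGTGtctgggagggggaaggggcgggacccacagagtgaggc
Arntl, chr7:113207529-113207558, plus strand, the ROR half-site: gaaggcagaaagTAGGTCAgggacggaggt
The variant was also matched in the windows of Cry2 and Nr1d1. Ciart encodes a repressor of the CLOCK and BMAL1 pair and is not one of the 10 genes. It is shown because, of 15872 genes compared, its values over the 12 livers were closest to those of Dbp, as described below.

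Levels are given as log2 of the background-subtracted Cy3 signal relative to the 75th percentile of the same array, so a level of 0 lies at that percentile and a difference of 1 is a doubling. They compare one gene across mice and say nothing about one gene against another. The share of spots well above background was 54.5% to 62.3% per array, no spot was saturated, and the first axis of variation (60.8% of the variance) separated BDL from sham livers. Habp2 was at 4.97 to 5.50 in the 6 WT livers and was not well above background in the FSAP-/- BDL livers, at least 1180-fold lower than in WT BDL (limma adjusted p = 2.671e-05). The part of Habp2 that was deleted is not in the labels. One FSAP-/- sham array (replicate 1) was the only one on its slide and was scanned in another session, and it was the one FSAP-/- array with a Habp2 signal well above background (-3.45). Without it, 8 clock genes changed after BDL in WT livers and 1 in FSAP-/- livers, against 7 and 1 with it. Signal of Ddx3y and Eif2s3y, both on the Y chromosome, was found on 3 arrays, all from FSAP-/- mice (sham replicate 1, BDL replicates 1 and 2), and the labels give no sex. Hepatocyte markers were well above background on every array (10 of 10). In whole liver, fewer cells of a type and less RNA per cell cannot be told apart.

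**Figure D1:**
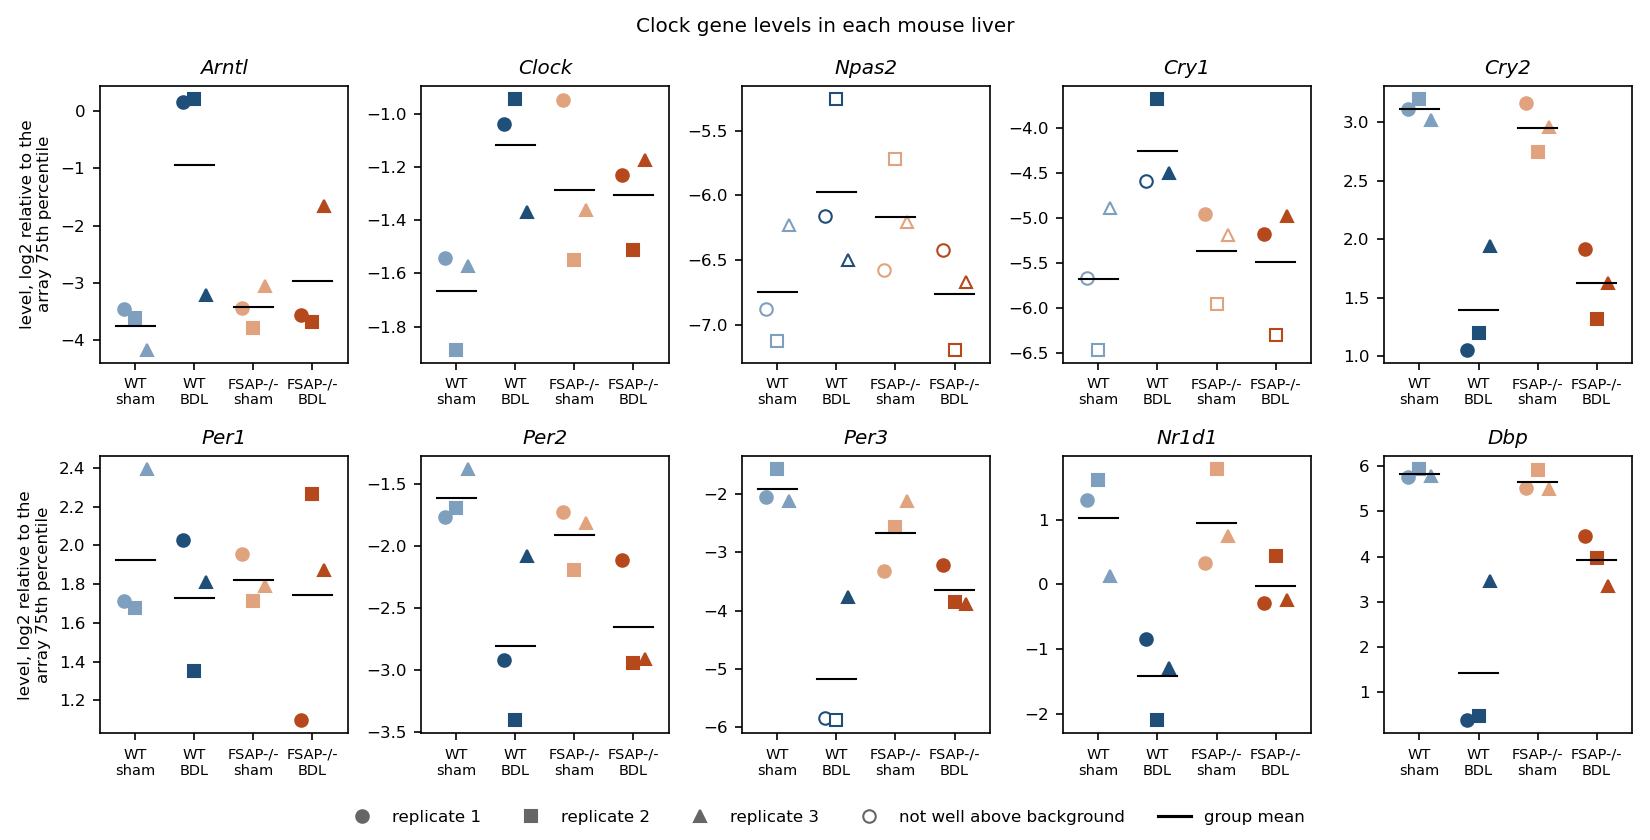
Level of each of the 10 clock genes in each of the 12 livers (vertical axis, log2 relative to the array's 75th percentile, with its own range in each panel) by group (horizontal axis), where symbols mark the replicate number, open symbols are spots not well above background and bars are group means. In WT BDL livers, replicates 1 and 2 lie together and apart from replicate 3 for Arntl and Dbp, and for Per3 replicate 3 alone is well above background.

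In WT livers after BDL, Arntl and Cry1 rose and Cry2, Per2, Per3, Nr1d1 and Dbp fell, which is 7 of the 9 genes tested, while Clock and Per1 did not pass the test (limma, Benjamini-Hochberg adjusted p under 0.05 over all 19531 genes). Of all genes tested, 32.9% changed in this comparison, 15.2% rose and 17.7% fell. Of these calls over all genes 46.2% were rises, and 33.4% when arrays were scaled to their medians. The median log2 change of the 9 clock genes was -1.19, beside -0.03 for all genes tested. The BDL and sham values did not overlap for 8 of the 9, all but Per1, and for 52.1% of all genes.

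Among the activators, Arntl was low in every sham liver and high in some BDL livers. Its probe lies at chr7:120457261-120457320 (mm9). The levels were -3.46, -3.61 and -4.17 in WT sham and 0.16, 0.22 and -3.21 in WT BDL livers. Replicates 1 and 2 of WT BDL were thus far above the WT sham livers, and replicate 3 was only just above them. The mean rose 6.97-fold (95% interval 1.96 to 24.8, log2 change 2.80, SE 0.83, adjusted p = 0.0245). That call was lost without WT sham replicate 1, 2 or 3 (log2 change 2.95, 2.87 and 2.59), without WT BDL replicate 1 or 2 (2.25 and 2.22) and in a fit of only the 2 groups, where adjusted p ran up to 0.0942.

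Clock, whose protein is a partner of BMAL1, had a narrower range (probe at chr5:76641377-76641436, mm9). Its levels were -1.54, -1.89 and -1.57 in WT sham and -1.04, -0.94 and -1.37 in WT BDL livers, so that every BDL value lay above every sham value. The difference of 0.55 (95% interval 0.12 to 0.98) stood at the threshold with an adjusted p of 0.0502, and Clock passed it in 7 of 25 alternative analyses, among them those without WT BDL replicate 3 (0.68, adjusted p = 0.0378) and without FSAP-/- sham replicate 1 or 2. Npas2, the relative that can replace CLOCK, read between -7.20 and -5.25 over the 12 livers, none of them well above background, and no order can be taken from these values.

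Cry2 and Cry1, the cryptochrome repressors, moved in opposite directions. Cry2 (probe at chr2:92243807-92243866, mm9) was at 3.11, 3.20 and 3.02 in WT sham and at 1.05, 1.20 and 1.94 in WT BDL livers. It fell 3.27-fold (95% interval 2.27 to 4.71, adjusted p = 0.000423) with no overlap between the groups. A second, dimmer Cry2 probe for another transcript (chr2:92251417-92251476) differed by -0.73 on the log2 scale, in the same direction. Cry1 (chr10:84594731-84594790) was dim, at -5.67, -6.47 and -4.89 in WT sham and at -4.58, -3.67 and -4.50 in WT BDL livers. It was well above background in none of the WT sham livers and in 2 of the WT BDL livers (replicates 2 and 3). Cry1 rose by the test (fitted log2 change 1.42, limma adjusted p = 0.0387). With the sham spots at the lowest signal well above background, or their own if higher, Cry1 was 1.61-fold higher after BDL. That is not a firm bound, since the BDL mean includes replicate 1 at a signal not well above background. The Cry1 call was lost under 11 of 24 alternatives, among them median scaling, quantile normalization and another background correction (log2 change 1.27, 1.29 and 0.19). It was also lost without WT sham replicate 1 or 2 (1.43 and 1.03), without WT BDL replicate 2 or 3 (1.13 and 1.55) and without FSAP-/- sham replicate 3.

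The 3 period genes, whose proteins join the cryptochromes in the repressor complex, did not move alike. Per3 (chr4:150379256-150379315), the gene with 2 D-box matches in its promoter, was at -2.04, -1.56 and -2.11 in WT sham and at -5.86, -5.90 and -3.77 in WT BDL livers. Replicates 1 and 2 of WT BDL were not well above background and replicate 3 was. Per3 fell (fitted log2 change -3.27, adjusted p = 0.000927), and it was at least 6.27-fold lower with those 2 spots set at the lowest signal well above background on their arrays. Per2 (chr1:93313046-93313105) was at -1.76, -1.69 and -1.38 in sham and at -2.92, -3.41 and -2.08 in BDL livers, and fell 2.28-fold (95% interval 1.38 to 3.77, adjusted p = 0.0175). The Per2 call was lost without WT sham replicate 3 (-1.08) and without WT BDL replicate 2 (-0.88). Per1 (chr11:68923364-68923423), which is also induced directly by glucocorticoids, was at 1.71, 1.68 and 2.39 in sham and at 2.03, 1.35 and 1.81 in BDL livers. The Per1 groups overlapped, and the log2 difference of -0.20 had a 95% interval of -0.87 to 0.47 (adjusted p = 0.66).

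Nr1d1, the nuclear receptor that represses Arntl, was at 1.31, 1.61 and 0.13 in WT sham and at -0.85, -2.10 and -1.29 in WT BDL livers. Its probe spans 503 bases of genome (chr11:98630526-98631028, mm9). Every BDL value was below every sham value, and Nr1d1 fell 5.39-fold (95% interval 2.59 to 11.2, adjusted p = 0.00307).

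Dbp had the largest change of the 10 genes. Its levels were 5.76, 5.94 and 5.79 in WT sham and 0.36, 0.45 and 3.45 in WT BDL livers. The sham livers lay within 0.19 of each other, and the BDL livers spread over 3.09. The mean fell 21.2-fold (95% interval 7.65 to 58.9, log2 change -4.41, SE 0.67, adjusted p = 0.000677). Both Dbp probes, at chr7:52965322-52965381 and chr7:52965461-52965520 (mm9), gave this result, with log2 differences of -4.41 and -4.50.

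**Figure D2:**
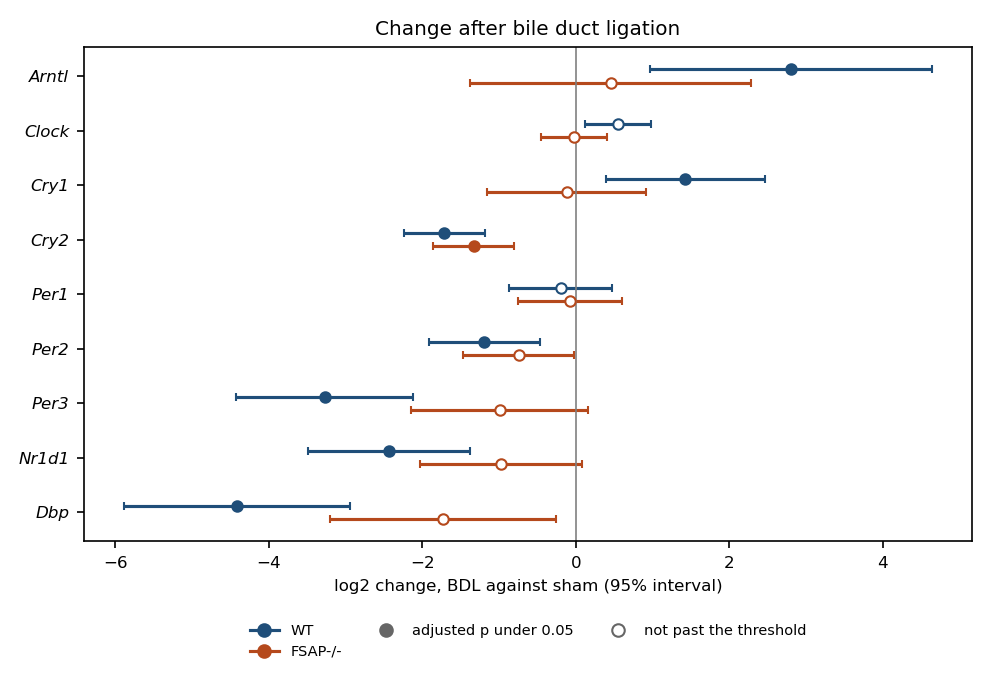
Log2 change after BDL against sham (horizontal axis, point with 95% interval from limma) for the 9 clock genes tested, in WT and in FSAP-/- livers, with filled points past an adjusted p of 0.05. In WT livers 7 points are filled, from Dbp at -4.41 to Arntl at 2.80, and in FSAP-/- livers only that of Cry2, at -1.33.

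Dbp, Per3 and Cry2 fell in WT livers under each of the 25 alternative analyses that gave a test, with fitted log2 changes of -5.47 to -3.88 for Dbp, -3.97 to -1.53 for Per3 and -2.05 to -1.22 for Cry2. Slide and group are largely tied in this design. Slide 1 held all 3 WT sham arrays and WT BDL replicate 1, and there the difference, with no test, was -5.47 for Dbp, -3.95 for Per3, 3.91 for Arntl, -2.05 for Cry2, -1.87 for Nr1d1, -1.31 for Per2, 1.09 for Cry1 and 0.63 for Clock. A fit with slide as a block gives these same differences, since WT BDL replicate 1 is then the only BDL liver set against the WT sham livers, and its spread is assumed to be that of the other groups. In that fit Dbp, Per3 and Cry2 passed the threshold and Arntl, Nr1d1, Per2 and Cry1 did not (adjusted p = 0.0701, 0.0705, 0.129 and 0.329). Hepatocyte markers as a sum were 2566 to 2923 times the array's 75th percentile in WT sham and 1726 to 2956 in WT BDL livers, and 1 of 10 fell. Cholangiocyte markers were 1.69 to 2.05 in sham and 13.5 to 16.6 in BDL livers by the same measure, and macrophage markers 43.5 to 58.6 and 94.7 to 101. The part that cell composition had in the clock gene changes was not tested.

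The 3 WT BDL livers differed among themselves. Replicates 1 and 2 lay 0.06 apart for Arntl and 0.09 for Dbp, and replicate 3 lay 3.38 and 3.00 from the nearer of them. For Per3 replicates 1 and 2 were not well above background, so their distance cannot be read. Cry2 showed the same split on a smaller scale (0.14 and 0.74), and Nr1d1 did not (1.25 and 0.44). The SD among the 3 WT BDL livers was 1.97 for Arntl and 1.76 for Dbp, beside a median of 0.24 over all genes tested. Of all genes tested, 0.527% had an SD as large as that of Arntl in this group, and 0.748% one as large as that of Dbp. Replicates 1 and 2 came from different slides, and replicates 2 and 3 shared one. On the first axis of variation over all genes, the 3 livers were at 55.1, 81.6 and 72.5, so replicate 3 lay between the other two there. In replicates 1, 2 and 3, the summed markers were 2956, 2140 and 1726 for hepatocytes, 13.5, 16.6 and 13.8 for cholangiocytes, 101, 95.9 and 94.7 for macrophages and 28.1, 72.4 and 22.4 for neutrophils. They were 29.2, 70.9 and 78.9 for stellate cells and myofibroblasts, 5.47, 4.55 and 3.28 for lymphocytes and 37.4, 37.9 and 36.0 for endothelium. The sums for hepatocytes, macrophages, neutrophils, lymphocytes and endothelium were lowest in replicate 3, and their part in the split was not tested. The contrast between these livers was noticed in the data and has no test.

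**Figure D3:**
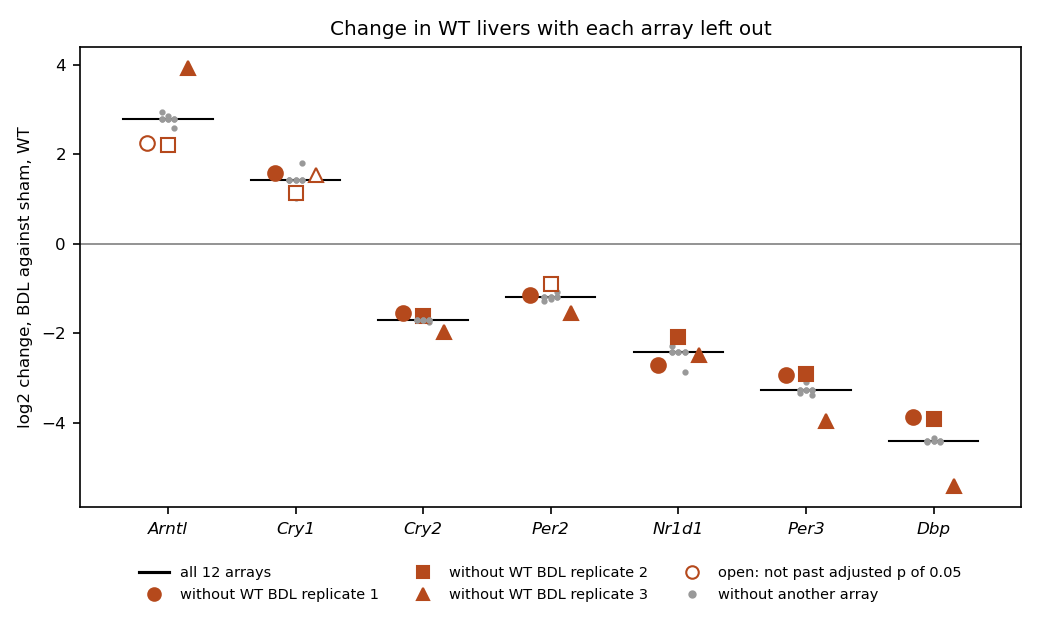
Log2 change after BDL in WT livers (vertical axis) for the 7 clock genes that changed, with all arrays (bar) and with each array left out, where large symbols leave out a WT BDL array, open ones did not pass an adjusted p of 0.05, and small grey dots leave out another array. Without WT BDL replicate 3 the change widens to 3.94 for Arntl, -3.97 for Per3 and -5.42 for Dbp.

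In FSAP-/- livers Cry2 fell after BDL and no other clock gene passed the test, 1 of 9 tested, where 39.1% of all genes changed, 16.2% rose and 22.8% fell. Of the calls over all genes 41.5% were rises, and 28.7% with median scaling. The median log2 change of the 9 was -0.74, beside -0.16 over all genes. The groups did not overlap for Cry2 and Dbp, 2 of 9, and for 47.5% of all genes. Cry2 was at 3.16, 2.74 and 2.95 in FSAP-/- sham and at 1.92, 1.32 and 1.63 in FSAP-/- BDL livers, and fell 2.51-fold (95% interval 1.74 to 3.62, adjusted p = 0.00153). This call held in each of 25 alternatives.

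Dbp was at 5.53, 5.92 and 5.50 in FSAP-/- sham and at 4.45, 3.97 and 3.35 in FSAP-/- BDL livers. All BDL values were below all sham values, and the log2 difference of -1.73 (95% interval -3.20 to -0.25) had an adjusted p of 0.0617. It passed the threshold in 5 of 25 alternatives, among them the fit of only these 2 groups (adjusted p = 0.00756) and the fit without WT BDL replicate 3 (adjusted p = 0.000699). The FSAP-/- values are the same in these fits, and the shared estimate of the spread no longer holds WT BDL replicate 3. Per3 was at -3.32, -2.56 and -2.11 in sham and at -3.22, -3.86 and -3.88 in BDL livers, with a difference of -0.99 (95% interval -2.14 to 0.16, adjusted p = 0.158). Per2 was at -1.72, -2.20 and -1.81 in sham and at -2.11, -2.94 and -2.91 in BDL livers, with a difference of -0.74 (95% interval -1.47 to -0.02, adjusted p = 0.0967). Without WT BDL replicate 3 the adjusted p was 0.0298 for Per3 and 0.0436 for Per2, and without FSAP-/- BDL replicate 1 Per2 differed by -1.01 (adjusted p = 0.0391). For Per3 and Per2, 1 BDL liver (replicate 1) overlapped the sham livers and the other two lay below them.

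Nr1d1 was at 0.33, 1.78 and 0.74 in FSAP-/- sham and at -0.28, 0.44 and -0.25 in FSAP-/- BDL livers, with a difference of -0.98 (95% interval -2.03 to 0.08, adjusted p = 0.13). Arntl was at -3.43, -3.78 and -3.05 in sham and at -3.56, -3.69 and -1.65 in BDL livers. Replicate 3 of FSAP-/- BDL was the only FSAP-/- liver with Arntl above -3.05, and the mean difference of 0.46 had a 95% interval of -1.38 to 2.29 (adjusted p = 0.70). The same liver had the lowest Dbp (3.35) of the FSAP-/- mice. Clock, Cry1 and Per1 differed by -0.02, -0.12 and -0.08, with adjusted p of 0.95, 0.86 and 0.86. On slide 3, which held the 3 FSAP-/- BDL arrays and FSAP-/- sham replicate 3, the differences, with no test, were -1.33 for Cry2, -1.57 for Dbp, -1.54 for Per3, -0.84 for Per2, -0.77 for Nr1d1 and 0.08 for Arntl. Of 10 hepatocyte markers 6 fell in FSAP-/- livers after BDL, from a sum of 2855 to 2992 times the 75th percentile to 1466 to 2095. Stellate cell and myofibroblast markers went from 34.0 to 42.9 in sham to 75.8 to 154.5 (6 of 8 rose), macrophage markers from 30.3 to 46.5 to 102 to 133 (7 of 8 rose) and cholangiocyte markers from 1.63 to 2.12 to 11.7 to 44.0 (7 of 8 rose, 1 fell). The part of these cells in the clock gene values was not tested.

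No clock gene differed between the genotypes by this test. In sham livers 0 of 9 passed limma's adjusted threshold and 0.0154% of all genes changed, while 0 of 9 and 7.88% of all genes had an unadjusted p under 0.05. The largest sham difference, FSAP-/- minus WT, was that of Per3 at -0.76 (95% interval -1.91 to 0.39, adjusted p = 0.80). After BDL 0 of 9 passed the adjusted threshold and 0.215% of all genes changed, while 5 of 9 and 12.9% of all genes had an unadjusted limma p under 0.05. Those 5 were Dbp (2.50, 95% interval 1.03 to 3.97, adjusted p = 0.15), Per3 (1.52, 0.37 to 2.67), Nr1d1 (1.38, 0.33 to 2.44), Arntl (-2.02, -3.85 to -0.19) and Cry1 (-1.23, -2.27 to -0.20), in log2 with 95% intervals. These are the genes that changed in WT livers and did not pass in FSAP-/- livers, apart from Per2, and the comparison shares its WT BDL arrays with that of BDL against sham.

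**Figure D4:**
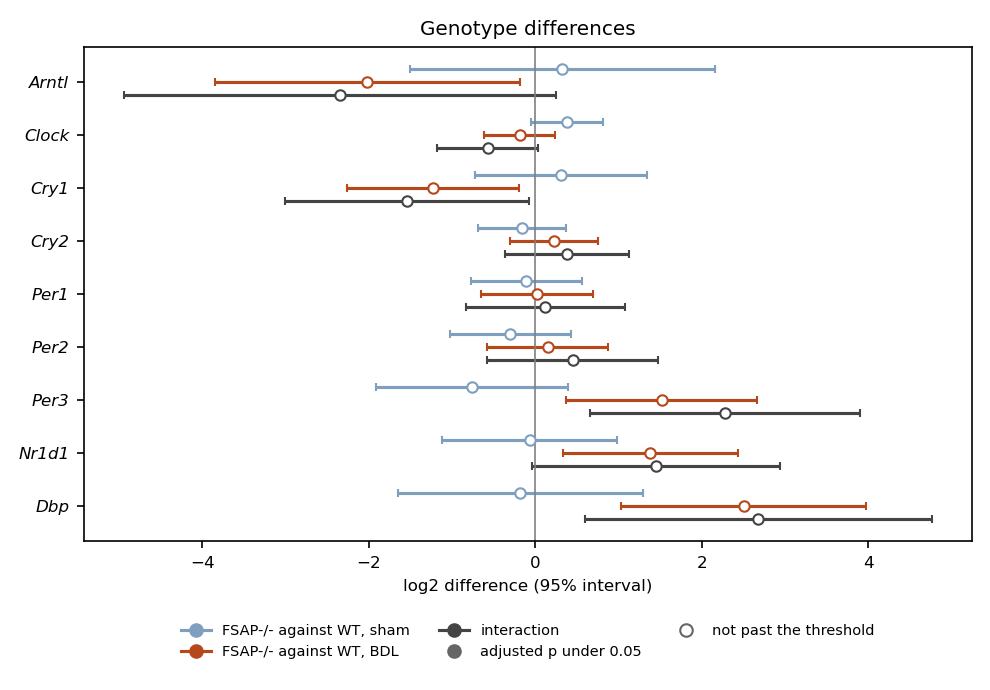
Log2 difference between FSAP-/- and WT livers (horizontal axis, point with 95% interval from limma) for the 9 clock genes tested, in sham livers, in BDL livers and as the interaction, which is the BDL change in FSAP-/- minus that in WT livers. No point is filled, so none passed an adjusted p of 0.05, and after BDL the intervals of Arntl, Cry1, Per3, Nr1d1 and Dbp lie off 0.

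Whether BDL acted differently in the 2 genotypes was tested as an interaction, and 0 of 9 clock genes passed limma's adjusted threshold, where 0.0102% of all genes did. An unadjusted p under 0.05 was found for 13.7% of all genes and for 3 of the 9: Dbp (2.68, 95% interval 0.60 to 4.76, adjusted p = 0.26), Per3 (2.28, 0.65 to 3.91, adjusted p = 0.22) and Cry1 (-1.54, -3.01 to -0.08, adjusted p = 0.34). The interval of Cry2 was -0.36 to 1.13 and that of Per1 was -0.83 to 1.07. A missed threshold does not show that the responses were alike, and 1 liver decided several of these calls. Without WT BDL replicate 3, Arntl (-3.16, limma adjusted p = 0.0421), Per3 (2.22, adjusted p = 0.0407, against WT BDL spots not well above background) and Dbp (3.52, adjusted p = 0.00151) passed the threshold between the genotypes after BDL. The Dbp interaction of 3.70 then had an adjusted p of 0.0481. Each of these genotype differences passed in only 1 of 25 alternatives, this one. That liver had been singled out by its values of these same genes, so these p-values cannot show a genotype difference. No slide held BDL arrays of both genotypes, so the slide and the genotype cannot be told apart within a slide. In a fit with slide as a block, which links the 2 BDL groups only through FSAP-/- sham replicates 2 and 3, the differences after BDL were 2.40 for Dbp, 0.72 for Per3, 2.70 for Nr1d1 and -2.20 for Arntl, with none called. With the Y-linked signal as a covariate they were 2.27, 1.73, 1.58 and -1.36, again with none called.

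In order of group means, Dbp, Per3, Per2, Cry2 and Nr1d1 ran from WT sham through FSAP-/- sham and FSAP-/- BDL down to WT BDL. Neighbours in that order overlapped except FSAP-/- sham and FSAP-/- BDL for Dbp and Cry2, and FSAP-/- BDL and WT BDL for Nr1d1. Arntl ran the other way, from WT BDL through FSAP-/- BDL and FSAP-/- sham to WT sham, and each pair of neighbours overlapped. Clock ran from WT BDL through FSAP-/- sham and FSAP-/- BDL to WT sham, with no overlap between the last pair. Cry1 was highest in WT BDL, and the other groups have no order, since most of their spots were not well above background. The Per1 groups all overlapped.

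Other genes of the clock pathway are given from a list of 19, all on the array and 18 tested. After BDL 1 rose and 10 fell in WT livers, with a median log2 change of -1.04, and 2 rose and 6 fell in FSAP-/- livers, with a median of -0.77. These are 11 and 8 of 18, beside 32.9% and 39.1% of all genes. Nothing passed between the genotypes or for the interaction (0 of 18 in each by limma). An unadjusted limma p under 0.05 was found for 1 in sham, 5 in BDL and 3 for the interaction. Of all genes, 7.88%, 12.9% and 13.7% had one. By role, all 3 repressors on the list fell in WT livers, as did 2 of the 3 D-box factors. Of the 6 kinases and ubiquitin ligases that act on PER and CRY proteins, Csnk1e rose and Btrc fell. Csnk1e encodes casein kinase 1 epsilon, which phosphorylates PER proteins, and it rose by 1.13 in WT (adjusted p = 0.00234) and by 0.73 in FSAP-/- livers (adjusted p = 0.0186).

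The largest change among them was that of Ciart, whose promoter above holds 3 E-box matches. It was at -1.47, -1.51 and -1.07 in WT sham and at -6.44, -5.37 and -2.95 in WT BDL livers. WT BDL replicate 3 again lay nearest to the sham livers, and it was the only one of the 3 well above background. Ciart fell in WT livers (fitted log2 change -3.57, adjusted p = 0.00423) and was at least 7.61-fold lower with the other spots at the lowest signal well above background, and its FSAP-/- difference of -1.84 had an adjusted p of 0.0728. Tef and Hlf, which bind the same D-box as DBP, fell by 2.08 and 2.10 in WT livers (adjusted p = 0.00177 and 0.000137) and by 1.33 and 1.71 in FSAP-/- livers (adjusted p = 0.016 and 0.000385). Bhlhe41, a repressor that binds E-boxes, was well above background in 2 of the 3 WT sham livers and in no WT BDL liver. It fell by the test (fitted log2 change -2.11, limma adjusted p = 0.00231). With the BDL spots at the lowest signal well above background it was 1.85-fold lower after BDL. That is not a firm bound, since the sham mean includes replicate 2 at a signal not well above background. Usp2, a clock-driven deubiquitinase, fell by 1.66 in WT livers (adjusted p = 0.0218). In FSAP-/- livers the 5 largest changes that passed were those of Hlf, Tef, Arntl2 (1.32, adjusted p = 0.0172), Bhlhe41 (-1.28, adjusted p = 0.0253) and Noct (-1.06, adjusted p = 0.0359). For Bhlhe41, 1 of 3 BDL and 2 of 3 sham spots were well above background there. Its difference was -0.87 with dim spots set at the lowest such signal.

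The split within the WT BDL group ran through this list as well. Replicates 1, 2 and 3 of WT BDL were at 3.10, 3.08 and 4.71 for Tef, whose WT sham livers were at 5.49 to 5.85. They were at -0.57, -0.65 and 1.15 for Usp2 (sham 1.38 to 1.96) and at -0.57, -0.77 and 0.61 for Nr1d2 (sham 1.20 to 1.33). Nfil3, which competes with DBP at the D-box, ran the other way, at 2.19, 2.62 and 0.70 (sham 0.87 to 1.26). Hlf, at 0.48, -0.51 and -0.25, did not single out replicate 3. For Bhlhe40, at 1.43, 1.34 and 1.63, the split was small. Replicates 1 and 2 lay 0.08 apart, and replicate 3 lay 0.20 from the nearer. These genes were picked out after their values were seen.

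**Figure D5:**
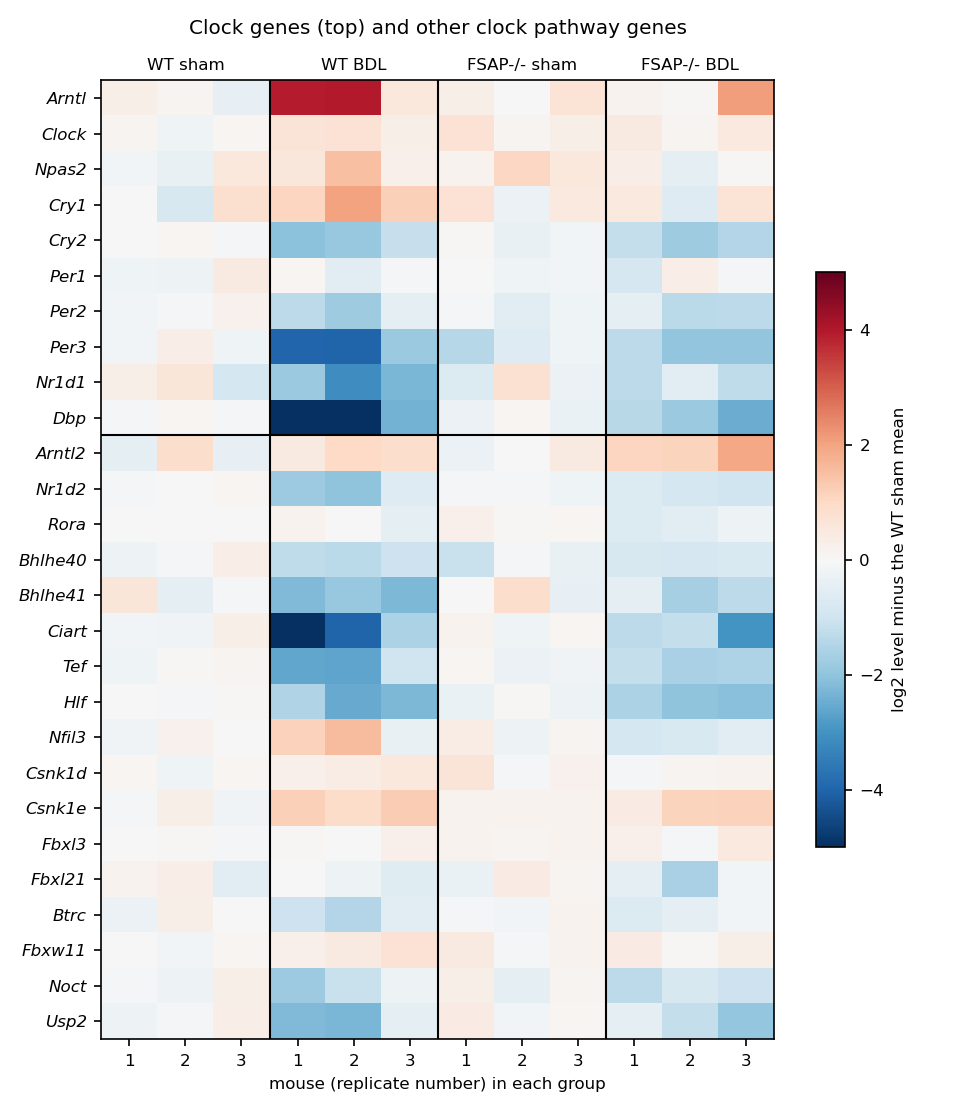
Log2 level minus the WT sham mean (colour, red above and blue below) of the 10 clock genes (top rows) and of other tested clock pathway genes (lower rows) in each of the 12 livers (columns, by group). In WT BDL livers the colours of replicate 3 are paler than those of replicates 1 and 2 for Arntl, Dbp, Tef and Usp2.

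Genes whose liver expression is known to follow the clock were read from a list of 16, of which 15 were matched by name on the array and tested. In WT livers 2 rose and 6 fell after BDL, with a median log2 change of -0.75. In FSAP-/- livers 0 rose and 6 fell, with a median of -0.30. The shares of all genes that changed, 32.9% and 39.1%, are to be read beside these 8 and 6 of 15. Between genotypes and for the interaction 0 passed limma's adjusted threshold. At an unadjusted limma p under 0.05 there were 2 in sham, 5 in BDL and 1 for the interaction. The shares of all genes were 7.88%, 12.9% and 13.7%. Upp2, a uridine phosphorylase, was at 3.17, 3.56 and 3.29 in WT sham and at -2.23, -2.17 and -0.01 in WT BDL livers, the last value again being replicate 3. It fell by 4.81 in WT (adjusted p = 0.000108) and by 3.68 in FSAP-/- livers (adjusted p = 0.000433). Ppara, the fatty acid receptor PPAR alpha, fell by 3.20 and 2.12 (adjusted p = 1.28e-05 and 0.000108), with WT BDL livers at 1.77, 1.63 and 2.10, so that here replicate 3 did not stand apart. Gys2, liver glycogen synthase, fell by 1.69 and 1.52 (adjusted p = 0.000233 and 0.000354). Elovl3, a fatty acid elongase, was not well above background in any WT BDL liver and was at least 3.38-fold lower there (adjusted p = 0.0366). In FSAP-/- livers it was at 1.96, -2.71 and -2.50 in sham and at -3.52, -5.70 and -7.20 after BDL, and fell (adjusted p = 0.0132). Only 1 of the 3 BDL spots was well above background, and Elovl3 was at least 11.2-fold lower, or 3.88-fold without sham replicate 1. Cyp2b10, a drug-metabolising cytochrome, was at -0.62, 6.11 and 5.99 in FSAP-/- sham and at 0.45, -1.20 and -1.13 in FSAP-/- BDL livers, and fell by 4.46 (adjusted p = 0.0454). For Elovl3 and Cyp2b10 the sham liver that stood apart was replicate 1, the array on its own slide and the one sham liver with Y-linked signal. Insig2, which holds back sterol synthesis, rose by 1.31 in WT livers (adjusted p = 0.00294), and its difference in FSAP-/- livers was 0.53 (adjusted p = 0.126). Several genes of this list are also known to respond to bile acids and to inflammation.

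Signals from outside the liver that can reset its clock were read from a list of 22 genes that respond to glucocorticoids, body temperature or feeding, of which 21 were tested, Per1 among them. In WT livers 6 rose and 2 fell, with a median log2 change of 0.17, and in FSAP-/- livers 5 rose and 6 fell, with a median of -0.08. These are 8 and 11 of 21, beside 32.9% and 39.1% of all genes. Igfbp1, a fasting-induced binding protein of insulin-like growth factors, had the largest change, at 0.78, 1.31 and -0.52 in WT sham and 6.90, 7.18 and 6.26 in WT BDL livers. It rose by 6.26 in WT (adjusted p = 0.000149) and by 4.32 in FSAP-/- livers (adjusted p = 0.00113). Zbtb16, a zinc finger factor induced by glucocorticoids, rose by 3.30 in WT (adjusted p = 0.00134) and by 1.82 in FSAP-/- livers (adjusted p = 0.0252), and Sgk1, a kinase so induced, rose by 1.45 in WT livers (adjusted p = 0.00166). Of the 8 glucocorticoid-responsive genes 3 rose and 1 fell in WT livers and 2 rose and 2 fell in FSAP-/- livers, Tsc22d3 falling in both (-0.78 and -1.19, adjusted p = 0.0368 and 0.00416) and Tat in FSAP-/- livers (-1.17, adjusted p = 0.0112). Rbm3, which is induced by cold, rose by 2.41 and 2.29 (adjusted p = 0.000168 and 0.000199). Hspa1a, a heat shock protein gene, was not well above background in any sham liver and was at least 2.87-fold higher after BDL in WT (adjusted p = 0.00119) and at least 1.87-fold higher in FSAP-/- livers (adjusted p = 0.0324). Srebf1, a lipogenic factor raised by feeding, fell by 1.30 and 1.60 (adjusted p = 0.0143 and 0.00415), and Hsph1, another heat shock gene, fell 2.82-fold in FSAP-/- livers (adjusted p = 0.00897). FSAP-/- sham replicates 1, 2 and 3 were at 3.37, 1.85 and 2.17 for Hsph1 and at 0.58, -1.45 and -1.54 for Zbtb16. For both genes replicate 1, the array on its own slide, stood apart. None of the 21 genes passed limma's adjusted threshold between genotypes or for the interaction (0 in each). At an unadjusted limma p under 0.05 there were 1 in sham, 3 in BDL and 3 for the interaction. The shares of all genes were 7.88%, 12.9% and 13.7%. WT BDL replicate 3 lay between the other two for Zbtb16, at 2.59, 1.33 and 2.15, and for Rbm3, at 4.32, 3.98 and 4.08. It lay below both for the fasting-responsive genes G6pc, at 4.17, 4.67 and 2.47, Angptl4, at 4.22, 4.65 and 3.55, and Igfbp1. Tsc22d3, Tat, G6pc and Angptl4 were picked out after their values were seen. The part of these signals in the clock gene changes was not tested.

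The genes whose values over the 12 livers most resembled those of a clock gene were ranked by the root mean square difference of log2 values, each centred on its own mean, among 15872 other genes. This is a description over 12 livers that share slides and groups. Dbp was followed most closely by Ciart (0.51, with 2 of its 12 values not well above background, beside a median of 1.94 over all genes), then by Irx1 (0.61), Poln (0.65), Cyp2a21-ps (0.68) and Cyp2a4 (0.71), and Per3 was in place 6 (0.72). Per3 was nearest to Ell3 (0.33, median 1.38), Mme, Slc2a2, Smim6 and Tppp. Nr1d1 was nearest to Mrnip (0.40, median 1.14), 1810058I24Rik, Map2k6, Grik5 and Syt3. Arntl was nearest to Serpina3b (0.66, median 1.51), Serpina3i (0.68), Lgalsl and Kcnt2. Cry1 was the nearest other clock gene to Arntl, in place 193, with only 5 of its 12 values well above background. Clock was nearest to Eif2b2 (0.13, median 0.49), Kctd9, Snx11, Naa15 and Otud3, and none of the other clock genes was closer to it than Per1, at 0.48.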

How the data were processed

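Total RNA of 12 mouse livers was hybridised to 1-colour Agilent arrays (Cy3). The deposited scanner files hold spot intensities made with Feature Extraction 10.5.1.1 (protocol GE1_105_Jan09), per the file headers, and probe positions are on mm9 there. The intensity used, the processed signal, had been background-subtracted and detrended within the array, per the file headers, and was not scaled between arrays. The authors also deposited a table of log2 values of the same arrays, whose column medians were all 5.66 and which served only as an alternative. How those values were normalized, no label or header says.

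Here each array's 75th percentile of log2 signal was subtracted, flagged outlier spots were left out (79 of 234372 values tested), spots of one probe were averaged, and each gene was taken at its brightest probe. One array lacked most gene names and was joined by probe identifier. Of 33063 probes with a RefSeq accession 26412 matched the reference table. Genes above background in 3 or more of the 12 arrays were tested with limma 3.58.1 (R 4.3.3) in one model of 4 group means, two-sided, with Benjamini-Hochberg adjustment at 0.05. The scripts were tested on simulated data. "At least" folds set the brighter group against the lowest signal well above background on each dim array, or the probe's own signal if higher. The number of arrays, 3 a group, limits the precision, and p-values measure the spread between these mice.

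Named are the 10 clock genes, the 5 largest passing changes of each other list, the 5 genes most like a clock gene, Habp2, and genes said to be picked after their values were seen. Individual values of 2 genes that this rule or these lists hold are not reported here, and counts include them. The genes and lists were chosen with earlier results of these data known. Alternatives covered background correction, scaling, the deposited log2 table, filters, probe choice, slide, replicate number, Y-linked signal, the test, and leaving out each array.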

Additional observations from a re-analysis of the deposited data

Results flagged for a closer look

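Csnk1d, which encodes casein kinase 1 delta, a kinase of PER proteins, differed from sham in opposite directions in the 2 genotypes, with neither change past the threshold (WT 0.38, adjusted p = 0.131, FSAP-/- -0.19, adjusted p = 0.451, limma). Its levels were 3.47, 3.18 and 3.48 in WT sham and 3.65, 3.73 and 3.90 in WT BDL livers, each BDL value above the sham mean. FSAP-/- sham livers had a mean of 3.65 ± 0.34 (SD, n = 3), and FSAP-/- BDL livers were at 3.31, 3.53 and 3.54, each below that mean. The BDL change in FSAP-/- minus that in WT livers was -0.57 on the log2 scale, and it did not pass the interaction test (limma adjusted p = 0.36).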

How the results depend on the processing

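In WT livers 7 clock genes changed after BDL. The count was 3 with slide as a fixed block and 4 to 8 with 1 array left out, lowest without WT BDL replicate 2. In FSAP-/- livers 1 clock gene changed, against 4 with normexp background correction, 4 with median scaling, 2 in a fit of only the 2 groups, and 1 to 4 with 1 array left out, highest without WT BDL replicate 3. For the genotype difference after BDL the count was 0, and 0 to 3 with 1 array left out, and for the interaction 0, and 0 to 1, in both cases highest without WT BDL replicate 3. Of the other clock pathway genes 8 changed in FSAP-/- livers, against 1 with slide as a fixed block and 5 to 12 with 1 array left out, and the genotype count after BDL, 0, ran from 0 to 3, highest without WT BDL replicate 3. The fixed slide block leaves 1 BDL array in the WT comparison and 1 sham array in the FSAP-/- comparison, and the cause of the other shifts was not tested. No called direction reversed. Deviations from the group means had correlations of -0.20 to 0.19 between same-numbered mice and of -0.21 to 0.22 between differently numbered ones. These values show no pairing by number, but with 3 mice a group they cannot exclude one, and the main fit used none. With the replicate number as a block 8 clock genes changed in WT livers, Clock being added, and 1 in FSAP-/- livers.

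Over all genes, the counts after BDL were 6420 in WT and 7631 in FSAP-/- livers, and 3286 and 4150 with slide as a fixed block. Median scaling moved the median change of all genes from -0.03 to -0.19 in WT and from -0.16 to -0.36 in FSAP-/- livers. Between genotypes after BDL 42 genes changed, 2 with slide as a fixed block and 139 with normexp, and for the interaction 2, and 368 with the Y-linked covariate. Signal over background limits Npas2, Cry1, Bhlhe41, Elovl3, Hspa1a and, in WT BDL livers, Per3 and Ciart.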
